A study of Mus musculus with 35 samples.

Results

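The microRNAs (miRNAs) described here are those known from the endothelial and stellate cells of the liver, measured in mice given the mutagen N-ethyl-N-nitrosourea (ENU). They were chosen by name, as every assay for miR-126, miR-143, miR-145, miR-199 or miR-214, whatever the letter or arm. The rule found 5 of 376 miRNA assays. Of these, 2 are endothelial (mmu-miR-126-3p and mmu-miR-126-5p) and 3 belong to stellate cells (mmu-miR-199a-5p, mmu-miR-199b and mmu-miR-214), and the prefix is left out from here on. No assay for miR-143 or miR-145, the smooth-muscle-type miRNAs, was among those analysed here. Each of the 5 miRNAs gave a threshold cycle (Ct) in all 35 livers.

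All mice were female Big Blue mice, 6 months old at injection, which carry a transgene for counting mutations. They received a single intraperitoneal injection, of ENU at 120 mg/kg or of the vehicle DMSO. ENU-treated livers were taken on post-treatment day (PTD) 1, 3, 7 or 15 (5 mice each) and on PTD 30 or 120 (4 mice each), 28 ENU mice in all. The 7 DMSO mice were labelled day 1 (3 mice) or day 30 (4 mice) and were used as 1 control group. No control was labelled day 120, so PTD 120 has no control of the same age. Small RNA from whole liver was run on 1 real-time PCR array per mouse. Ct falls by 1 for each doubling of the RNA, so a lower Ct stands for more RNA, and the level used here is -ΔCt, the mean Ct of 4 reference RNAs of the array minus the Ct of the miRNA, on a log2 scale. In whole liver, fewer cells of a type and less RNA per cell cannot be told apart.

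Endothelial cells line the sinusoids and larger vessels of the liver, and miR-126 is among their most abundant miRNAs. It is cut from an intron of Egfl7, a gene of endothelial cells, and is known to strengthen the response to vascular endothelial growth factor by repressing inhibitors of that pathway. Stellate cells lie between the sinusoid and the hepatocytes, store vitamin A, and on injury turn into the myofibroblasts that deposit scar. The precursors Mir199a-2 and Mir214 share a long non-coding transcript, Dnm3os, which is active in mesenchymal cells. Both miR-199a and miR-214 are known to increase in fibrotic liver.

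The mature sequences, from RefSeq (GRCm38.p6), show which of the assays could read related RNAs. Capitals mark the seed, bases 2 to 8 from the 5′ end, which chooses the target mRNAs. The assay name miR-199a-5p is spelled as in RefSeq, miR-126-3p is listed there as miR-126a-3p, and miR-126-5p is named only. The assay names miR-199b and miR-214 do not say which arm was read, so the 3p arm shown for each is not a statement of what the assay amplified.
miR-126a-3p: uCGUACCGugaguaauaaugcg
miR-199a-5p: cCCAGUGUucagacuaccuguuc
miR-199a-3p: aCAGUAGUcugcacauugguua
miR-199b-3p: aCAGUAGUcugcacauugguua
miR-214-3p: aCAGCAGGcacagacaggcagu
miR-761: gCAGCAGGgugaaacugacaca
The 3p arms of miR-199a and miR-199b are the same sequence, so an assay for that arm would not tell the genes Mir199a-1, Mir199a-2 and Mir199b apart. The seed of miR-214-3p is also that of miR-761, which has its own assay on the array.

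The loci lie within the spans of 3 dynamin genes and 1 endothelial gene, and the miR-199 and miR-214 loci are known to be read from the strand opposite to the dynamin genes. Mir126a (chr2:26591357-26591429, plus strand) lies within Egfl7, with the annotated Mir126b on the opposite strand at chr2:26591363-26591420. Mir199a-2 (chr1:162217814-162217923) and Mir214 (chr1:162223368-162223477) lie 5444 bases apart on the plus strand, within both Dnm3 and Dnm3os. A second copy of miR-199a, Mir199a-1, lies on the minus strand within Dnm2 (chr9:21496495-21496564), and Mir199b lies within Dnm1 (chr2:32318460-32318569). Dnm1, Dnm2 and Dnm3 encode the dynamins, GTPases that cut vesicles from membranes. The Mir126a precursor holds both arms measured here. Its sequence is shown with the 3p arm in capitals.
Mir126a: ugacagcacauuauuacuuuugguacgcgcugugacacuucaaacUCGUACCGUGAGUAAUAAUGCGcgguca

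The endothelial pair was abundant in control liver and the stellate-cell miRNAs were less so. In the 7 controls, miR-126-3p had a mean Ct of 17.9 ± 0.51 (SD), the eighth lowest of 376 assays, and miR-126-5p had a Ct of 19.2 ± 0.51 at rank 23. Among the stellate-cell miRNAs, miR-199b stood at 22.0 ± 0.67 (rank 50), miR-199a-5p at 25.5 ± 0.48 (rank 94) and miR-214 at 26.6 ± 0.46 (rank 116). For comparison, miR-122, the major miRNA of hepatocytes, had the lowest Ct of all assays, 14.2 ± 0.29, as liver should, and miR-761, which shares the seed of miR-214-3p, had a Ct of 30.8 ± 0.50 at rank 239. Assays may amplify with unequal efficiency, so ranks between assays are approximate.

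The arrays were grouped here into 3 run periods by the month of the run, with February and March joined as the first. These periods coincide with the labels of the controls. The 3 controls labelled day 1 ran in the first period, with all mice of PTD 3, 7 and 15 and 4 of the 5 of PTD 1. Of the 4 controls labelled day 30, 2 ran in the second period, with PTD 30, PTD 120 and replicate 4 of PTD 1, and 2 in the third period, alone. For the 4 reference RNAs the mean Ct was 21.2 ± 0.14 in the day 1 controls and 22.1 ± 0.26 in the day 30 controls, with ranges of 21.1 to 21.4 and 21.7 to 22.3 that do not overlap, while the median miRNA Ct was 29.0 in both. At PTD 3, 7 and 15 the median miRNA Ct averaged 29.6, 29.8 and 29.8. The Ct difference between 2 reverse transcription control wells ran from -0.26 to -0.20 in the day 1 controls. At PTD 3, 7 and 15 it ran from -0.29 to 0.17, -0.019 to 0.18 and -0.026 to 0.21. Finer batches within the first period were not tested. In ENU livers the reference Ct averaged 21.6, 22.1, 22.3 and 22.5 at PTD 1, 3, 7 and 15, and 21.9 and 22.0 at PTD 30 and 120. Because -ΔCt subtracts from this reference, results below are also given against controls of the same run period and with the median miRNA Ct of the array in place of the reference RNAs.

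**Figure D1:**
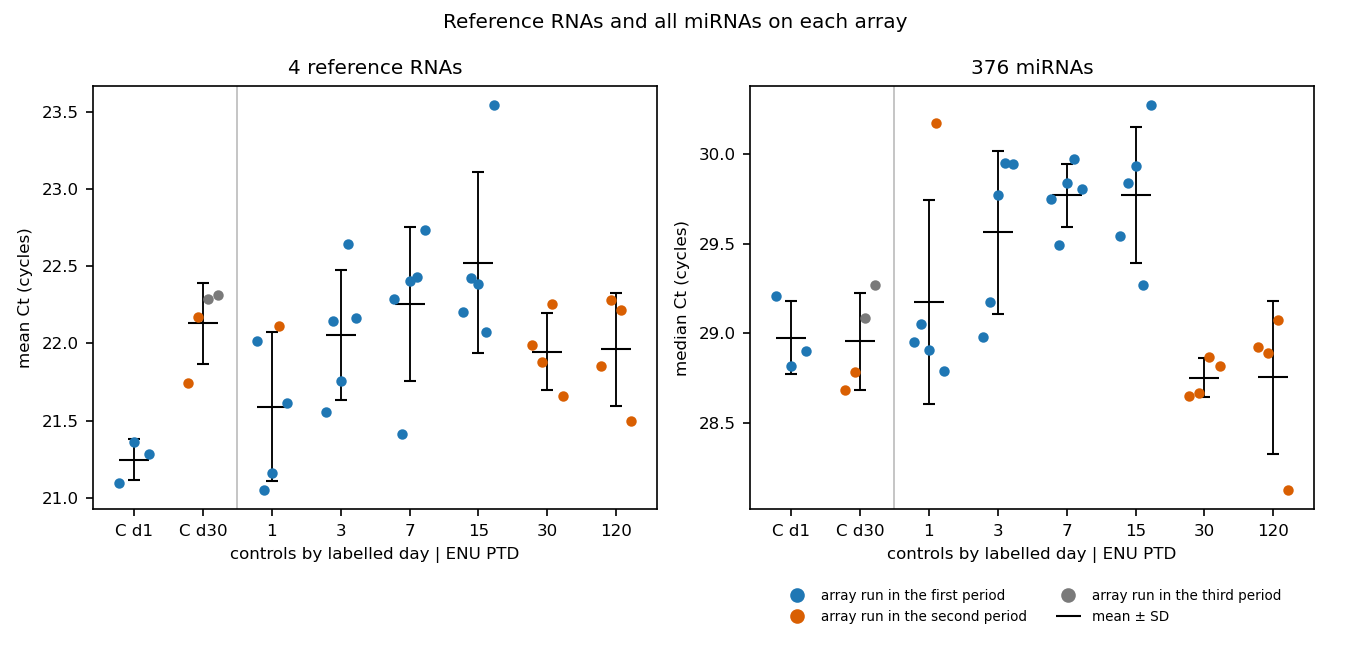
Mean Ct of the 4 reference RNAs (left) and median Ct of 376 miRNAs (right) on each array, in cycles, for controls by labelled day (C d1, C d30) and ENU mice by PTD; points are mice coloured by run period, bars the mean ± SD. The day 1 controls have reference Cts of 21.1 to 21.4, below the 21.7 to 22.3 of the day 30 controls, and the highest reference Ct, 23.5, belongs to a PTD 15 mouse.

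The 2 sets of controls differed in the endothelial miRNAs and in miR-199b. For miR-126-3p, -ΔCt was 2.91, 3.46 and 2.49 in the day 1 controls and 4.43, 4.82, 4.58 and 4.41 in the day 30 controls. The sets do not overlap, and the means differed by 1.61, or 0.70 with the median miRNA Ct as reference. For miR-126-5p the values were 1.43, 2.12 and 1.28 against 2.69, 3.65, 3.56 and 3.26, a difference of 1.68. For miR-199b they were -1.49, -0.81 and -1.71 against 0.64, 0.84, 0.56 and 0.54, a difference of 1.98. For these 3 miRNAs a two-sided exact permutation test gave p = 0.0286, the smallest that 4 against 3 samples allow, and 48.4% of all 376 miRNAs also had sets without overlap. The difference was 1.07 for miR-199a-5p (exact p = 0.0571) and 0.50 for miR-214 (exact p = 0.143). With the median miRNA Ct as reference it was 0.78 for miR-126-5p, 1.08 for miR-199b and 0.16 for miR-199a-5p, and it turned to -0.41 for miR-214. Over all 376 miRNAs the median difference was 1.00. The label, the day of sacrifice and the run period of a control cannot be told apart.

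Against the 7 pooled controls, none of the 5 miRNAs was called at any PTD. A miRNA was called where limma gave an unadjusted p under 0.01 and the fold change exceeded 2, the study's rule for a differentially expressed miRNA. The share of all 376 miRNAs called was 1.33%, 2.13%, 9.84%, 11.4%, 1.6% and 1.33% at PTD 1, 3, 7, 15, 30 and 120. At an unadjusted limma p under 0.05 the count was 1 of 5 at PTD 15 (miR-214) and 0 of 5 at the other PTDs, beside 5.05%, 10.4%, 24.5%, 29%, 10.6% and 8.78% of all 376 miRNAs in the same order. The methods' t-test also called 0 of 5 at each PTD. In all 30 comparisons of a miRNA at a PTD with the controls the values overlapped, and 111 of 140 ENU values lay within the range of the controls for that miRNA. Over all 376 miRNAs at the 6 PTDs, 3.24% of comparisons did not overlap and 71.5% of values lay within the control range, beside 79.3% for the 5.

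**Figure D2:**
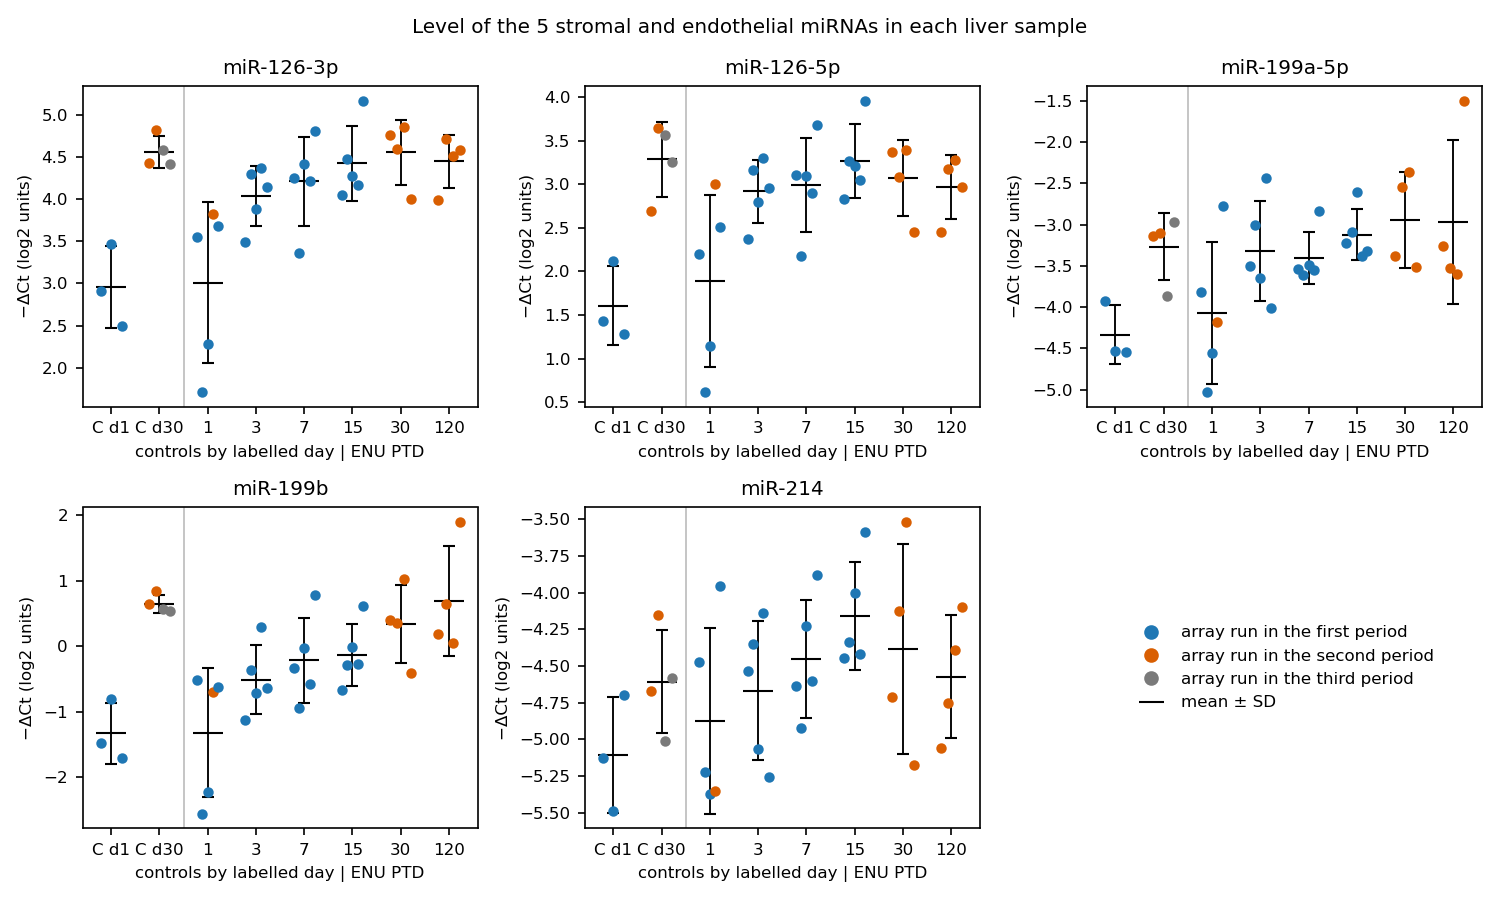
-ΔCt (log2 units) of each of the 5 miRNAs in each of 35 livers, controls by labelled day at left and ENU mice by PTD at right; points are coloured by run period and bars give the mean ± SD. For miR-126-3p, miR-126-5p and miR-199b the 3 day 1 controls lie below the 4 day 30 controls, and the ENU groups of PTD 3, 7 and 15 lie above the day 1 controls on average.

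Among the ENU groups miR-126-3p was lowest at PTD 1 and highest at PTD 30, and from PTD 3 on neighbours in the order of group means differed by less than the SD of either. At PTD 1, -ΔCt was 3.55, 1.71, 2.28, 3.83 and 3.67, with a mean of 3.01 ± 0.95 (SD, n = 5) against 3.87 ± 0.91 in the controls (n = 7). Replicates 2 and 3 were low and all 5 values lay below the control mean. Their arrays had the lowest reference Cts of PTD 1, 21.05 and 21.16, beside 21.61 to 22.11 in the others. Their raw Cts of miR-126-3p, 19.34 and 18.88, were also the highest of the group. The limma log2 fold change was -0.86 (SE 0.52, adjusted p = 0.669), and leaving out 1 mouse at a time gave -1.09 to -0.54. The later means were 4.04 ± 0.36, 4.21 ± 0.53, 4.43 ± 0.44, 4.55 ± 0.38 and 4.45 ± 0.32, in order from PTD 3 to PTD 120. This order holds for the reference RNAs, and with the median miRNA Ct as reference the highest means were 11.7 at PTD 7 and PTD 15, above 11.4 at PTD 30 and 11.2 at PTD 120. On the scale of the reference RNAs the last 3 differed from the pooled controls by 0.55, 0.68 and 0.58, beside median differences over all miRNAs of 0.36, 0.54 and 0.46 at the same PTDs. Against controls of the same run period these 3 differences were 1.47, -0.072 and -0.18.

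miR-126-5p, from the other arm of the same precursor, followed the same order up to PTD 15. Its -ΔCt at PTD 1 was 2.20, 0.61, 1.14, 3.00 and 2.51, and again replicates 2 and 3 were the lowest. The group mean was 1.89 ± 0.99 against 2.57 ± 0.98 in the controls, a log2 fold change of -0.68 (SE 0.54, limma adjusted p = 0.682), or -0.95 to -0.36 without 1 mouse at a time. Its highest group was PTD 15, at 3.26 ± 0.42, where the values were 2.83, 3.27, 3.21, 3.05 and 3.96 and all 5 exceeded the control mean. The log2 fold change there was 0.70 (SE 0.46, limma adjusted p = 0.321). PTD 3, 7, 30 and 120 had means between 2.92 and 3.07, closer to each other than their SDs.

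Of the stellate-cell miRNAs, miR-214 at PTD 15 had the smallest p against the pooled controls, with a fold change below 2. Its -ΔCt there was -4.44, -4.34, -4.00, -4.42 and -3.58, and all 5 values lay above the control mean of -4.82 ± 0.43. The 7 controls ranged from -5.49 to -4.15 with a median of -4.70, so 3 of the 5 lay inside their range. The log2 fold change was 0.66 (SE 0.29, limma adjusted p = 0.144, exact permutation p = 0.0227), with a 95% confidence interval of 0.038 to 1.29, and the all-miRNA median difference was 0.36. At PTD 1 its log2 fold change was -0.055 (SE 0.36), and at the other PTDs it lay between 0.15 and 0.44.

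miR-199a-5p, whose Mir199a-2 copy shares the Dnm3os transcript with miR-214, had its largest differences from the pooled controls late. The values at PTD 30 were -3.38, -2.55, -2.36 and -3.51, all above the control mean of -3.72 ± 0.67, and 2 of the 4 lay inside the control range of -4.54 to -2.97. The log2 fold change was 0.77 (SE 0.42, limma adjusted p = 0.435). At PTD 120 the values were -3.25, -3.52, -3.60 and -1.50, and replicate 4 set the mean apart. With that mouse the log2 fold change was 0.76 (SE 0.48, limma adjusted p = 0.487), and without it 0.27, below the 0.60 of PTD 15. At PTD 1, 3 and 7 the log2 fold changes were -0.35, 0.40 and 0.32. Against controls of the same run period the order turned, with 1.01, 0.93 and 1.21 at PTD 3, 7 and 15 and 0.17 and 0.15 at PTD 30 and 120.

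miR-199b, whose locus lies within the span of Dnm1, had the widest span of group means. Its -ΔCt at PTD 1 was -0.51, -2.56, -2.23, -0.71 and -0.62, with replicates 2 and 3 low as for miR-126. The mean was -1.33 ± 0.99 against -0.20 ± 1.10 in the controls, a log2 fold change of -1.12 (SE 0.57, limma adjusted p = 0.669). At PTD 120 the values were 0.18, 0.65, 0.05 and 1.89, and the same replicate 4 that stood apart for miR-199a-5p was highest. The log2 fold change was 0.90 (SE 0.59, limma adjusted p = 0.487), or 0.50 without that mouse. Its log2 fold changes at PTD 3, 7, 15 and 30 were -0.31, -0.016, 0.072 and 0.54. Against controls of the same run period these were 0.82, 1.12, 1.20 and -0.40, with -0.15 at PTD 1 and -0.046 at PTD 120. The control SD of 1.10 is the largest of the 5 miRNAs and spans the 2 control labels described above.

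Within the first run period miR-126-5p was called higher at PTD 3, 7 and 15 and miR-126-3p at PTD 7 and 15. Against the 3 controls of that period, 1 of 5 miRNAs was called at PTD 3, 2 of 5 at PTD 7 and 4 of 5 at PTD 15, all higher, beside 7.98%, 33% and 40.4% of all 376 miRNAs called in either direction and 7.71%, 26.9% and 35.6% called higher. The log2 fold changes of miR-126-5p were 1.31 (SE 0.37, limma adjusted p = 0.0977), 1.38 (SE 0.38, adjusted p = 0.0185) and 1.66 (SE 0.34, adjusted p = 0.00677). Those of miR-126-3p were 1.25 (SE 0.38, limma adjusted p = 0.0255) at PTD 7 and 1.47 (SE 0.35, adjusted p = 0.0104) at PTD 15. At PTD 3 its value was 1.08 (SE 0.37, limma adjusted p = 0.133). At PTD 15 the rule also called miR-199a-5p, with 1.21 (SE 0.29, limma adjusted p = 0.0105), and miR-199b, with 1.20 (SE 0.36, adjusted p = 0.0214). miR-214 was not called, with 0.95 (SE 0.31, limma adjusted p = 0.0315). The PTD 15 values of all 5 miRNAs lay above those of the 3 controls, which gives an exact permutation p of 0.0179, the smallest that 5 against 3 allow. The same held for 44.4% of all 376 miRNAs.

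These differences moved with the reference RNAs and with most other miRNAs. Over all 376 miRNAs the median difference in the same comparisons was 0.63, 0.84 and 1.05 in turn, and at PTD 15 80.1% of miRNAs were above 0. The raw Ct of miR-126-3p was 18.1 at PTD 15 and 18.3 in the controls of the period, a difference of -0.19 cycles, while the reference Ct differed by 1.28. For miR-126-5p the raw Ct difference was -0.38, for miR-199a-5p 0.068, for miR-199b 0.074 and for miR-214 0.33. With the median miRNA Ct as reference the calls of miR-126-5p at PTD 3 (1.09, SE 0.38) and of miR-126-3p, miR-199a-5p and miR-199b at PTD 15 were lost. On that scale miR-126-5p was still called at PTD 7, at 1.17 (SE 0.24, limma adjusted p = 0.00612), and at PTD 15, at 1.17 (SE 0.29, adjusted p = 0.0168), as was miR-126-3p at PTD 7, at 1.04 (SE 0.26, adjusted p = 0.0133). The shares of all miRNAs called were then 29.8% at PTD 7 and 22.3% at PTD 15. At PTD 15 miR-199a-5p then stood at 0.73 (SE 0.42), miR-199b at 0.72 (SE 0.31) and miR-214 at 0.46 (SE 0.32), beside 0.98 (SE 0.31) for miR-126-3p. Of the pairs across the 2 cell types, the difference was tested only for miR-199a-5p and miR-126-3p, as a ratio within arrays.

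At PTD 1, and at PTD 30 and 120, none of the 5 miRNAs was called within the run period. Against 3 controls of the first period, 4 mice of PTD 1 gave log2 fold changes of -0.15 for miR-126-3p, 0.00815 for miR-126-5p, 0.29 for miR-199a-5p, -0.15 for miR-199b and 0.35 for miR-214, with SEs of 0.50 to 0.57. Against the 2 controls of the second period, the 5 miRNAs lay between -0.40 and 0.17 at PTD 30 and between -0.20 and 0.15 at PTD 120. The widest departure from 0, that of miR-199b at PTD 30, had a 95% confidence interval of -1.41 to 0.61. limma called 0 of 5 at each of these 3 PTDs, beside 1.06%, 0.798% and 0% of all 376 miRNAs. At an unadjusted limma p under 0.05 the count was also 0 of 5, beside 3.99%, 2.93% and 2.13%. With 4 mice against 2, an exact permutation test cannot go below p = 0.0667.

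**Figure D3:**
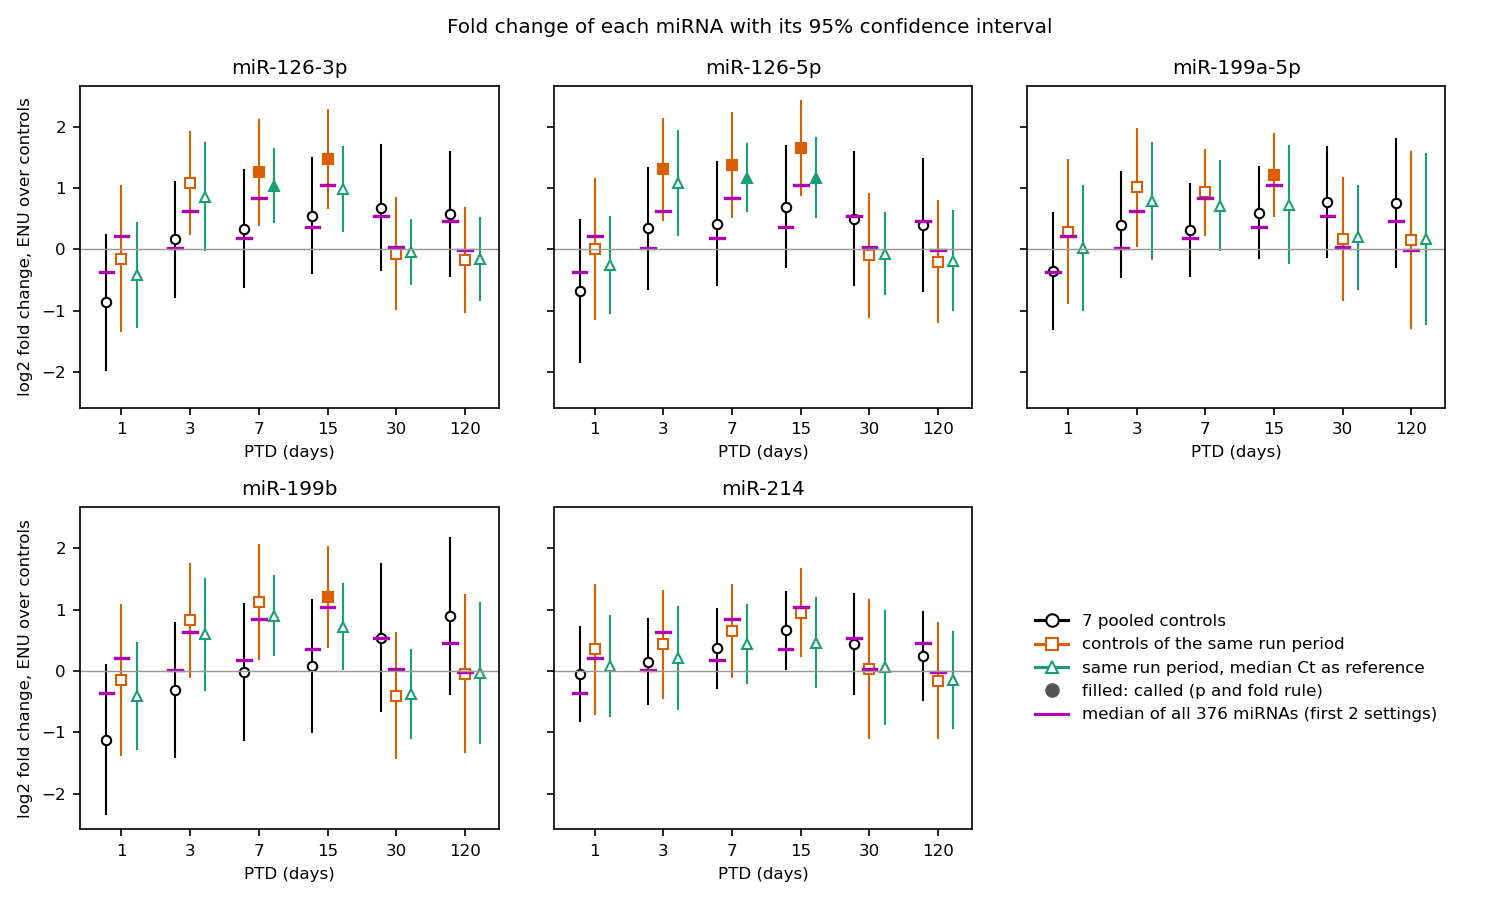
log2 fold change of ENU over controls for each miRNA at each PTD, with its 95% confidence interval (vertical lines), against 7 pooled controls (circles), controls of the same run period (squares) and the latter with the median miRNA Ct as reference (triangles); filled symbols were called and purple bars give the median of 376 miRNAs. No circle is filled, squares are filled at PTD 3, 7 and 15, and miR-126-5p at PTD 15 has the highest square, 1.66.

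Between ENU groups, without any control, miR-126-3p was higher at PTD 15 than at PTD 1. The PTD 15 values were 4.05, 4.47, 4.27, 4.16 and 5.17, and all exceeded the highest PTD 1 value of 3.83, which came from the PTD 1 array of the second run period. The share of all miRNAs separated in this way was not computed. Its raw Ct differed by -0.48 cycles between these groups, while the reference Ct differed by 0.93. The log2 fold change was 1.42 (SE 0.47, limma adjusted p = 0.0405, exact permutation p = 0.00794, the smallest that 5 against 5 allow), and miR-126-3p was the 1 of 5 called, beside 23.9% of all 376 miRNAs called in either direction and 19.4% called higher. Markers of other cell types were called higher in the same comparison, miR-802 (1.55) and miR-148a (1.33) of 5 hepatocyte miRNAs, miR-150 (1.96) and miR-155 (1.55) of 7 white blood cell miRNAs and miR-200b* (1.51) of 5 epithelial ones, with list medians of 1.16, 1.15 and 0.94, and their part in the result was not tested. miR-126-5p differed by 1.37 (SE 0.47, limma adjusted p = 0.0458), miR-199b by 1.20 (SE 0.48, adjusted p = 0.0639), miR-199a-5p by 0.95 (SE 0.43, adjusted p = 0.0943) and miR-214 by 0.72 (SE 0.39, adjusted p = 0.148). The all-miRNA median difference was 0.81, and 60 of 376 miRNAs had a higher value than miR-126-3p. With the median miRNA Ct as reference miR-126-3p was not called, at 1.08 (SE 0.38, limma adjusted p = 0.0613). The call was also lost with the replicate block and with wells of no Ct set to 40, where the log2 fold change stayed at 1.42 and the unadjusted p lay just over the limit. Leaving out 1 mouse at a time gave 1.09 to 1.62 for miR-126-3p and 0 to 2 called miRNAs. The call was lost without any one of the PTD 15 mice or without replicate 2 or 3 of PTD 1, and the count was 2 without replicate 4 or 5 of PTD 1.

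From PTD 30 to PTD 120 none of the 5 miRNAs passed the test. The log2 differences were -0.11 (SE 0.33) for miR-126-3p, -0.10 (SE 0.34) for miR-126-5p, -0.017 (SE 0.50) for miR-199a-5p, 0.36 (SE 0.46) for miR-199b and -0.19 (SE 0.41) for miR-214. limma called 0 of 5, beside 0.798% of all miRNAs, and 0 of 5 had an unadjusted p under 0.05, beside 3.46%. All 8 arrays ran in the second period, and the 95% confidence interval for miR-126-3p reached from -0.82 to 0.61.

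Ratios of 2 miRNAs on the same array need no reference RNA and were compared in 3 pairs. The first pair, the arms of miR-126, held closest. miR-126-3p over miR-126-5p was 1.30 ± 0.24 on the log2 scale in the controls, and the ENU means were 1.12, 1.12, 1.22 and 1.16 from PTD 1 to PTD 15 and 1.48 at both PTD 30 and PTD 120. Over all 35 arrays it ranged from 0.83 to 1.74 with an SD of 0.20. None of its 6 differences from the controls passed (smallest exact permutation p = 0.115, adjusted p = 0.562). Within the first run period it was lower at PTD 3 by 0.23, with values of 1.07 to 1.19 against 1.21 to 1.48 in the 3 controls (exact p = 0.0179, adjusted p = 0.214). At PTD 15 the difference there was -0.19 (exact permutation p = 0.0357, adjusted p = 0.214). Within the second run period the differences were 0.025 at PTD 30 and 0.021 at PTD 120.

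miR-214 over miR-199a-5p varied more. The precursors Mir214 and Mir199a-2 share Dnm3os, but Mir199a-1 yields the same mature miR-199a-5p, so that assay does not tell the copies apart. It was -1.10 ± 0.48 in the controls, from -1.62 to -0.15, and the ENU means lay between -1.61 at PTD 120 and -0.80 at PTD 1. The difference at PTD 120 was -0.51 (exact permutation p = 0.218, adjusted p = 0.562), and it rests in part on replicate 4, at -2.60, the mouse with the high miR-199a-5p. Without that mouse the difference was -0.18. At PTD 3 it was -0.25 (exact permutation p = 0.345) against the pooled controls and -0.58 (exact p = 0.0357, adjusted p = 0.214) within the run period. The SD over 35 arrays was 0.46.

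Stellate-cell over endothelial miRNA, as miR-199a-5p over miR-126-3p, was -7.60 ± 0.57 in the controls. The ENU means, from PTD 1 to PTD 120, were -7.08, -7.36, -7.61, -7.55, -7.50 and -7.42, with SDs of 0.37 to 0.99. The largest difference from the controls was 0.52, at PTD 1 (exact permutation p = 0.162, adjusted p = 0.562), and within the run period the differences lay between -0.32 and 0.44. Over the 18 tests of pairs and PTDs none passed, with adjusted p from 0.562 to 0.961, and within the run period the smallest adjusted p was 0.214.

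**Figure D4:**
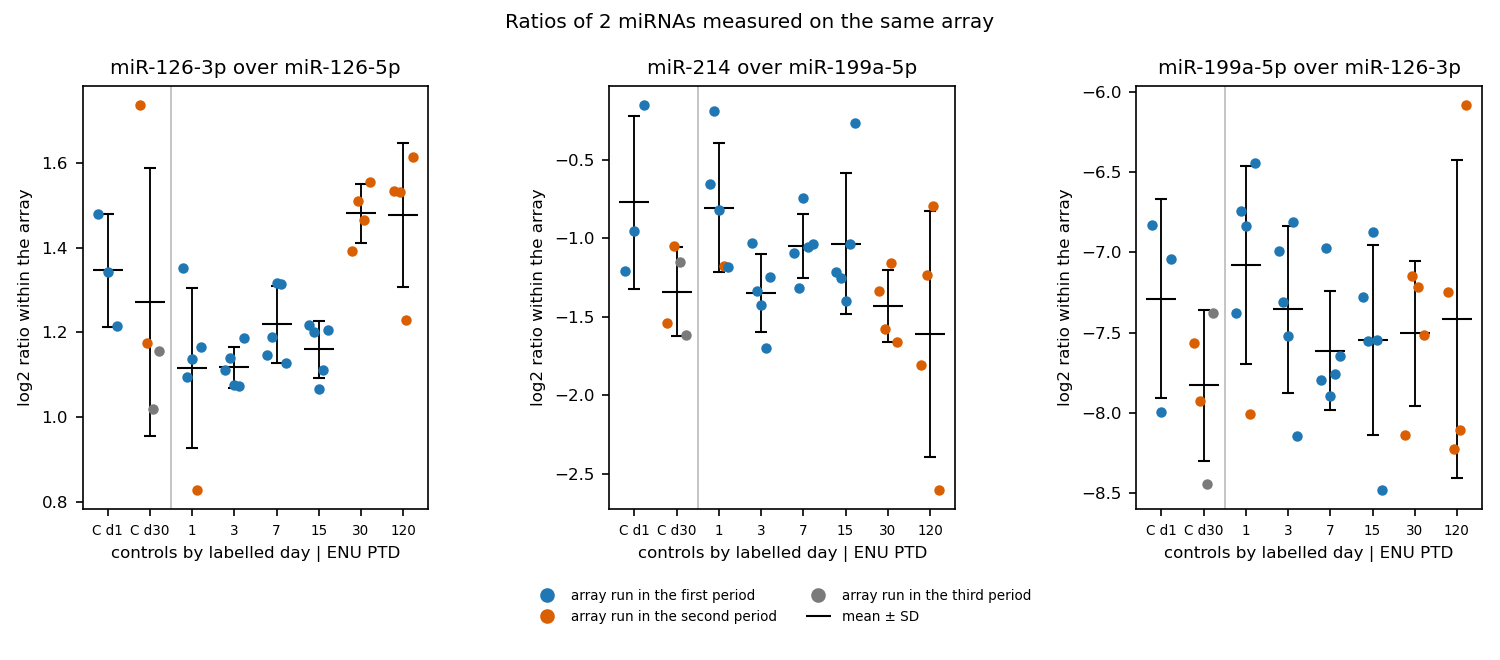
log2 ratios of 2 miRNAs on the same array for controls by labelled day and ENU mice by PTD; points are mice coloured by run period and bars the mean ± SD. The arms of miR-126 keep within 0.83 to 1.74, the other 2 ratios spread more, and in each panel the ENU groups overlap the pooled controls. For the arms of miR-126, PTD 3 lies below the day 1 controls.

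The 5 miRNAs varied together across the 35 arrays, most of all the arms of miR-126. Pearson's r of -ΔCt between miR-126-3p and miR-126-5p was 0.97 (Spearman's rho 0.91), between miR-126-3p and miR-199b 0.91 (rho 0.93) and between miR-199a-5p and miR-214 0.75 (rho 0.82). With the median miRNA Ct as reference these were 0.95, 0.77 and 0.62, and r between miR-199b and miR-214 was 0.057 in place of 0.59. These are descriptions over arrays that share reference RNAs, treatment groups and run periods, and no p was computed.

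Among the other 204 miRNAs whose mean Ct did not exceed 30, the pattern most like miR-126-3p was that of miR-16 (r = 0.98), followed by miR-152 (0.98) and miR-10a (0.97). For miR-126-5p it was miR-126-3p, then miR-148a (0.95) and miR-505 (0.95). miR-199a-5p was most like miR-301b (0.90), miR-362-3p (0.88) and miR-497 (0.88), and miR-199b most like miR-322 (0.97), miR-21 (0.93) and miR-10a (0.93). miR-214 had the loosest neighbours, with miR-28 at 0.81, miR-497 at 0.80 and miR-106b at 0.80. With the median miRNA Ct as reference miR-16, miR-126-3p, miR-301b and miR-322 stayed first for the same miRNAs, and miR-222 (0.79) was first for miR-214.

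Of 17 other miRNAs known to change or act in stellate cells during fibrosis, 4 were called at some PTD against the pooled controls, beside 17.3% of all 376 miRNAs called at some PTD. miR-222, which represses the cell cycle inhibitor p27, was higher at PTD 3, 7 and 15, by 1.31 (SE 0.42, limma adjusted p = 0.351), 1.34 (SE 0.38, adjusted p = 0.0482) and 1.69 (SE 0.37, adjusted p = 0.0154). miR-335-5p was higher at PTD 7 by 1.06 (SE 0.30, limma adjusted p = 0.0482) and at PTD 15 by 1.49 (SE 0.23, adjusted p = 0.00118). miR-146a, a brake on inflammatory signalling, and miR-150, a miRNA of mature lymphocytes, were lower at PTD 1, by -1.33 (SE 0.45, limma adjusted p = 0.669) and -1.72 (SE 0.36, adjusted p = 0.108). Within the first run period they stood at -0.67 and -1.06, and neither was called. The median log2 difference of the 17 was -0.77 at PTD 1 and 0.38 at PTD 15, beside -0.37 and 0.36 over all 376.

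Of 18 miRNAs known from vessel growth, 2 were called at some PTD, beside the same 17.3%. They are miR-222 again and miR-130a, which represses anti-angiogenic homeobox genes and was higher at PTD 15 by 1.32 (SE 0.37, limma adjusted p = 0.0396). The median of the 18 was -0.38 at PTD 1 and 0.58 at PTD 15, beside -0.37 and 0.36 over all 376. Within the first run period miR-222 stood at 0.84, 0.87 and 1.22 at PTD 3, 7 and 15, miR-335-5p at 1.15 and 1.58 at PTD 7 and 15, and miR-130a at 0.81 at PTD 15, and of these only miR-335-5p at PTD 15 was called. Of the lists as a whole, 3, 4 and 9 of the 17 and 1, 8 and 11 of the 18 were called higher there at PTD 3, 7 and 15, beside 7.71%, 26.9% and 35.6% of all miRNAs called higher.

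miRNAs of other liver cells are given beside those of the stroma. Of 5 hepatocyte miRNAs (miR-122, miR-192, miR-194, miR-148a and miR-802) and of 5 from bile duct and other epithelium, limma called none at any PTD against the pooled controls, where 17.3% of all miRNAs were called at some PTD. Against the controls of the first run period 3 of the 5 hepatocyte miRNAs were called higher at PTD 7 and at PTD 15, beside 26.9% and 35.6% of all 376 miRNAs. Their medians were 1.32 and 1.35, beside 1.32 and 1.56 for the endothelial pair, 0.93 and 1.20 for the 3 stellate-cell miRNAs and 0.84 and 1.05 over all miRNAs. Both red cell miRNAs were higher at PTD 15 against the pooled controls, miR-144 by 1.52 (SE 0.35, limma adjusted p = 0.0162) and miR-451 by 1.04 (SE 0.34, adjusted p = 0.0635), beside 6.65% of all miRNAs called higher, and both were also called within the run period, at 1.43 and 1.54. Of 7 white blood cell miRNAs, miR-146a and miR-150 were lower at PTD 1 and miR-142-3p, found across blood cells, was higher at PTD 120 by 1.35 (SE 0.43, limma adjusted p = 0.446), beside 0.798% of all miRNAs called lower at PTD 1 and 1.33% called higher at PTD 120. Within the run period none of these 3 was called, and miR-142-3p stood at 0.52. Others of the list were called there, miR-142-5p lower at PTD 7 by -1.42 (SE 0.39, limma adjusted p = 0.0183) and miR-146b higher at PTD 15 by 1.16 (SE 0.36, adjusted p = 0.0231). Of all miRNAs, 6.12% were called lower at PTD 7 and 35.6% higher at PTD 15. The list medians there were 0.87 and 0.89, beside 0.84 and 1.05 over all miRNAs. The summed level of the white blood cell list ranged from 0.59 to 1.44 (-ΔCt scale) in the day 1 controls, from 1.91 to 2.48 in the day 30 controls, from -0.54 to 1.18 at PTD 1 and from 2.13 to 2.64 at PTD 120. The part of these cells in the values of the 5 miRNAs was not tested.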

How the data were processed

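Per the labels, short RNA enriched from liver was reverse transcribed and amplified with SYBR Green on arrays of 384 wells for 40 cycles. The deposited values are the Ct of each well, calculated by the authors with SDS 2.3 at a fixed threshold of 0.15, without normalization. Wells were named from the study's well list. The 15 wells with no Ct, none of them of the 5 miRNAs, were treated as missing.

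For -ΔCt, the Ct of each miRNA was taken from the mean of U6, snoRNA142, snoRNA202 and snoRNA251 on that array. Each ENU group was compared with the 7 controls on -ΔCt of all 376 miRNAs in limma 3.58.1 (R 4.3.3), 1 two-sided fit per PTD, with Benjamini-Hochberg adjustment over 376. The labels give 3 day 1 and 4 day 30 controls and the study's methods 4 and 3, so controls were pooled as in the study. Within-array ratios were compared by exact permutation of all splits, with adjustment over 18 tests. The permutation code was checked against scipy 1.17.1 on simulated data. Sequences and loci came from RefSeq (GRCm38.p6). Genes named are the 5 miRNAs, the 3 assays most like each and called members of the lists. The miRNAs, lists and tests were chosen with earlier results of these data known. The number of mice limits the precision. The limma step was tested on simulated data. Alternatives were other references, control sets, run period and replicate blocks, another value for wells with no Ct and leaving out each mouse. The choice of same-period controls together with the median Ct was made after seeing the data.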

Additional observations from a re-analysis of the deposited data

Results flagged for a closer look

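In 56 groups of 4 or 5 samples tested for a sample far from the others, 3 stood apart by Dixon's criterion, about as many as chance gives at 1 in 20. miR-199a-5p had a -ΔCt of -2.84 in replicate 5 of PTD 7, the highest of 5, with the next at -3.48. It was -1.50 in replicate 4 of PTD 120, the highest of 4, with the next at -3.25. In that mouse miR-199b was also the highest of its group, at 1.89. The within-array ratio of miR-199a-5p over miR-126-3p was -6.97 in replicate 2 of PTD 7, with the next at -7.65. The level of miR-126-3p differed between the ENU groups of PTD 15 and PTD 1 by 1.42 in limma.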

How the results depend on the processing

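For the 30 comparisons of a miRNA at a PTD with controls, 950 values under an alternative were computed, other sets of controls and leaving out each mouse included. Of these, 832 kept their direction and side of the threshold, 35 came to be called and 83 changed sign. None of the 30 values was called against the pooled controls to begin with, and the cause of a change was not tested.

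The choice of controls moved most. With the day 1 controls only, 1, 2, 4, 4 and 3 miRNAs were called at PTD 3, 7, 15, 30 and 120, beside 7.98%, 33%, 40.4%, 37.5% and 27.9% of all miRNAs. Sign changes there, as log2 values, were 0.054 for miR-126-3p, 0.29 for miR-126-5p, 0.26 for miR-199a-5p, 0.00842 for miR-199b and 0.23 for miR-214 at PTD 1, and 0.82 and 1.12 for miR-199b at PTD 3 and 7. The ratio of miR-214 over miR-199a-5p changed to -0.032, -0.28 and -0.26 at PTD 1, 7 and 15, and that of miR-199a-5p over miR-126-3p to -0.067, -0.26, -0.22 and -0.13 at PTD 3, 15, 30 and 120. With the day 30 controls only, 2 were called lower at PTD 1 (miR-126-3p, -1.55, and miR-199b, -1.97) and 1 at PTD 3 (miR-199b, -1.16), beside 13% and 6.12% of all miRNAs. Sign changes were -0.53 (miR-126-3p), -0.37 (miR-126-5p), -0.054 (miR-199a-5p) and -0.062 (miR-214) at PTD 3, and -0.35, -0.30 and -0.14 for the first 3 at PTD 7. For miR-126-3p, miR-126-5p and miR-199b they were -0.14, -0.025 and -0.78 at PTD 15 and -0.00743, -0.22 and -0.31 at PTD 30, and for the miR-126 arms -0.11 and -0.32 at PTD 120. The ratio of miR-199a-5p over miR-126-3p was 0.22 at PTD 7.

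With controls of the same run period, 1, 2 and 4 were called at PTD 3, 7 and 15, beside 7.98%, 33% and 40.4% of all miRNAs. Sign changes were 0.00815 (miR-126-5p), 0.29 (miR-199a-5p) and 0.35 (miR-214) at PTD 1, 0.82 and 1.12 for miR-199b at PTD 3 and 7, -0.072 (miR-126-3p), -0.097 (miR-126-5p) and -0.40 (miR-199b) at PTD 30, and -0.18, -0.20, -0.046 and -0.16 for these 3 and miR-214 at PTD 120. The ratio of miR-214 over miR-199a-5p was -0.28 and -0.26 at PTD 7 and 15, and that of miR-199a-5p over miR-126-3p was -0.067 and -0.26 at PTD 3 and 15. The run period as a block called 2, 2 and 4 at PTD 3, 7 and 15, beside 13.3%, 38% and 42.6% of all miRNAs, with the same values of miR-199b at PTD 3 and 7 and of all these miRNAs at PTD 30 and 120. With the median Ct as reference in addition, 2 were called at PTD 7 and 1 at PTD 15, beside 29.8% and 22.3% of all miRNAs. The values were 0.024 (miR-199a-5p) and 0.084 (miR-214) at PTD 1, 0.60 and 0.90 for miR-199b at PTD 3 and 7, -0.043, -0.068 and -0.37 for miR-126-3p, miR-126-5p and miR-199b at PTD 30, and -0.16, -0.18, -0.029 and -0.15 for these 3 and miR-214 at PTD 120.

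With the median Ct as reference and pooled controls, values turned to 0.024 (miR-199a-5p) and 0.32 (miR-214) at PTD 1, 0.28 (miR-199b) at PTD 7, and -0.017 (miR-126-5p) and -0.17 (miR-214) at PTD 120. Without snoRNA202, miR-214 at PTD 1 was 0.058 and miR-199b at PTD 7 was 0.038. Without snoRNA142, miR-126-3p and miR-214 at PTD 3 were -0.00933 and -0.019. Without snoRNA251, miR-199b at PTD 7 was 0.00556, and without U6 it was -0.11 at PTD 15. With the reverse transcription control as a covariate it was -0.26 at PTD 15. The call of miR-126-3p at PTD 15 against PTD 1 was lost (0 called) with the median Ct, with wells of no Ct set to 40 and with the replicate block.

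Replicate numbers shared by the groups did not pair the mice. Correlations of same-numbered deviations ranged from -0.19 to 0.52 and were over 0.1 in all pairs at no PTD. The replicate block changed the call of miR-126-3p at PTD 15 against PTD 1, as above, turned miR-199b at PTD 15 against the controls to -0.16, and called 0 of 5 at each PTD against the controls.

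Leaving out 1 mouse at a time called 0 at every PTD against the controls and 0 to 2 at PTD 15 against PTD 1. Values that crossed 0 ranged from -0.29 to 0.069 (miR-214 at PTD 1), -0.068 to 0.32 (miR-126-3p at PTD 3), -0.27 to 0.16 and -0.18 to 0.25 (miR-199b at PTD 7 and 15). For PTD 120 against PTD 30 they ranged from -0.29 to 0.047 (miR-126-3p), -0.31 to 0.070 (miR-126-5p), -0.51 to 0.19 (miR-199a-5p), -0.045 to 0.59 (miR-199b) and -0.46 to 0.096 (miR-214). The ratio of miR-214 over miR-199a-5p ranged from -0.040 to 0.20 at PTD 7 and from -0.13 to 0.22 at PTD 15, and that of miR-199a-5p over miR-126-3p from -0.18 to 0.11, -0.12 to 0.28, -0.048 to 0.31 and -0.26 to 0.45 at PTD 7, 15, 30 and 120.

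The main limits are the 7 controls split over labels and run periods, the reference Ct that differed between them, and groups of 4 or 5 mice, in which pooled-control confidence intervals of the 5 miRNAs spanned more than 1 log2 unit.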
